A study of Citrus reticulata with 36 samples.

Results

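The integument of ponkan mandarin (Citrus reticulata) ovules was compared between the cultivar Huagan No.4 ponkan, labelled MT, and the cultivar Egan No.1 ponkan, labelled WT, at 32 days after pollination (DAP). These 6 libraries, 3 of MT and 3 of WT, are part of 36 libraries in 12 groups of 3, in which integument and nucellus of both cultivars were taken at 18, 28 and 32 DAP. Each sample is tissue cut out of ovule sections with a microscope laser (laser capture microdissection), and its small amount of RNA was amplified before RNA-seq. MT is used here only as a name, since the labels do not spell it out. The labels call the 3 libraries of a group biological replicates without saying whether they came from separate plants, so the p-values measure only the spread between these libraries. The features described are those in which all 3 MT libraries lay above all 3 WT libraries, or all below. Of 57344 features tested, 11443 (20%) met this at 32 DAP in the integument. In the other tissue and stage combinations the share ran from 12.3% to 18.5%. With 3 libraries against 3, full separation also arises without any cultivar difference, so 20% is not a share of features shown to differ.

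The integument is the outer layer of the ovule and becomes the seed coat, and the nucellus is the maternal tissue inside it that surrounds the embryo sac. In many citrus types embryos also form asexually from nucellus cells, beside the embryo formed by fertilization. Seed coat precursors are known in plants for cell wall remodelling and for making flavonoids, and the seed coat passes nutrients to the embryo. The files give identifiers such as c40866_g1 with no gene name and no sequence, so no role can be given to a feature here. For that reason at most 2 features higher and 2 lower in MT are named in each comparison.

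Counts of the 6 libraries summed to between 16232098 and 20022299, with 61394 to 68438 features above 0. Levels are CPM, a count scaled to a common library size, after TMM scaling, which corrects for a few abundant features taking up a library. A count of 0 allows up to 3 counts, which is 0.142 to 0.206 CPM in these libraries (counting error only). The libraries did not group cleanly by cultivar. Across features, the log2 CPM of MT replicate 1 correlated more closely with WT replicate 1 (r = 0.936) than with MT replicates 2 (r = 0.876) and 3 (r = 0.902). WT replicates 2 and 3 were the closest pair (r = 0.975), and MT replicate 2 and WT replicate 3 the most distant (r = 0.783). The tissue label was checked with features that separated all nucellus from all integument libraries at 18 and 28 DAP. The 593 such features marking nucellus took 0.785% to 0.875% of counts in MT integument and 0.741% to 0.808% in WT integument at 32 DAP, against 2.78% to 6.01% in nucellus libraries of that stage. The 1391 marking integument took 2.66% to 3.12% in MT and 3.35% to 4.16% in WT integument.

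The difference ran about equally both ways in number, and mostly with narrow margins. Of the separated features, 5729 (9.99% of those tested) were higher in MT and 5714 (9.96%) lower. On the deposited FPKM (fragments scaled to feature length and library total), without TMM, the split was 4357 higher and 7507 lower, so which direction holds more features depends on the scaling. The median log2 difference over all tested features was -0.04 with TMM and -0.14 on log2(FPKM + 0.1). After the median difference of the FPKM was centred on 0 the split was 6757 higher and 4692 lower. The median log2 fold change of MT over WT was 1.04 among features separated higher, with the middle 50% between 0.61 and 1.95, and -0.89 among those separated lower, between -1.39 and -0.59. The gap, the distance between the lowest library of the higher cultivar and the highest library of the lower cultivar, was small in most of them, with a median of 0.24 log2 units for higher and 0.21 for lower features. Just inside the rule, 3046 separated features had a gap under 0.1 log2 units, and just outside it 4248 features overlapped by less than 0.1.

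The wide gaps were mostly on the MT side. A gap of more than 1 log2 unit was found in 710 features higher in MT and 239 lower, a gap above 2 in 224 higher and 14 lower, and a gap above 3 in 76 higher and 0 lower. In the nucellus at 32 DAP, 331 features higher and 88 lower in MT had a gap above 1, and in the integument these counts were 99 and 117 at 28 DAP, and 45 and 286 at 18 DAP. Features at the extreme, with at least 10 counts in every MT library and 0 counts in every WT library at 32 DAP in the integument, numbered 21. The reverse was found for 1 feature, c90561_g1, named after its values were seen. None of the 21 was at 0 in all 15 other WT libraries. Their median was 6 of 15 other WT libraries at 0 and 5 of 15 other MT libraries at 0. Each of the 21 therefore had at least 1 count in some other WT library.

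Tested across all features, 583 (1.02%) differed between MT and WT in the integument at 32 DAP, 512 (0.893%) higher and 71 (0.124%) lower in MT (edgeR quasi-likelihood test, adjusted p under 0.05). Of the called features, 559 were also fully separated, 488 of the higher and all 71 of the lower. Separation and call rest on the same 6 libraries and do not support each other. On log2(FPKM + 1) limma called 758 higher and 390 lower, on log2(FPKM + 0.1) 590 and 203, DESeq2 1474 and 445, and voom 2824 and 951. The share of higher calls was lower in these fits, but 557 of the 559 features stayed separated the same way on FPKM. The count rested on few libraries. Leaving out MT replicate 1 gave 1315 calls and leaving out MT replicate 2 gave 6. Leaving out WT replicate 2 gave 0 (4999 at an unadjusted p under 0.05) and leaving out WT replicate 3 gave 3. Without WT integument replicates 1 or 2 of 28 DAP, whose spread enters the fit, there were 1003 and 895 calls, and there were 0 with the 6 libraries modelled alone (6836 at an unadjusted p under 0.05).

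The feature c40866_g1 had the widest gap among the 347 called and separated features higher in MT that reached 10 CPM. It measured 28.9, 108 and 30.8 CPM in the MT replicates 1, 2 and 3, against 0.299, 0.0475 and 0.237 CPM in the WT replicates. Every MT library was far above every WT library, and the WT level rested on 12 counts in all, so the size of the fold is poorly set. On the log2 scale MT exceeded WT by 8.12 ± 1.47 (SE; edgeR quasi-likelihood, adjusted p = 0.0118), and the adjusted p ran from 9.16e-09 to 0.161 over 28 other settings. In the other integument libraries the cultivars overlapped. In 6 other MT integument libraries it ran from 0.241 CPM to 60.5 CPM with a median of 18.6 CPM, and in 6 other WT integument libraries from 0.775 CPM to 81.9 CPM with a median of 6.16 CPM. At 28 DAP the MT integument held 1.84, 0.241 and 0.483 CPM, against 14.0, 0.775 and 1.65 CPM in WT. In the nucellus at 32 DAP the groups were again apart, with 4.98, 26.6 and 7.85 CPM in MT and 2.31, 1.04 and 2.09 CPM in WT, but the difference was not called (edgeR, adjusted p = 0.403).

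The most abundant feature of that group, c25385_g1, had 204, 761 and 320 CPM in MT and 109, 64.7 and 53.3 CPM in WT. The groups did not overlap, but MT replicate 1 was under 2-fold above WT replicate 1. MT exceeded WT by 2.50 ± 0.60 on the log2 scale (SE; edgeR quasi-likelihood, adjusted p = 0.0391). In 9 of 28 other settings it was not called, among them without MT replicate 2 (the call was kept without MT replicate 1 or 3) and without WT replicate 2 or 3. In the other WT integument libraries it ran from 77.9 CPM to 582 CPM with a median of 195 CPM, and in the other MT integument libraries from 87.4 CPM to 632 CPM with a median of 161 CPM. The MT libraries of 32 DAP therefore lay within the range of the other integument libraries for 2 of 3 replicates, and WT replicates 2 and 3 lay below that range.

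Among the 60 called and separated features lower in MT that reached 10 CPM, c9587_g1 had the widest gap. It measured 27.8, 9.83 and 15.9 CPM in MT and 63.6, 67.7 and 67.5 CPM in WT, where the 3 libraries were close together and all above the MT libraries. MT minus WT was -1.89 ± 0.45 on the log2 scale (SE; edgeR quasi-likelihood, adjusted p = 0.0352). Its level was higher in integument than in nucellus at 18 and 28 DAP, where the log2 fold change of nucellus over integument was -1.69 (edgeR, adjusted p = 5.1e-07). The most abundant, c3160_g1, had 473, 263 and 257 CPM in MT and 802, 890 and 723 CPM in WT. MT minus WT was -1.28 ± 0.31 on the log2 scale (SE; edgeR quasi-likelihood, adjusted p = 0.0406). At the earlier stages its MT mean was above the WT mean without passing the test, by 0.54 ± 0.31 on the log2 scale at 18 DAP (SE; edgeR, adjusted p = 0.643) and 0.26 ± 0.31 at 28 DAP (edgeR, adjusted p = 0.907). In both features the MT mean of 32 DAP was the lowest of the 6 integument groups and the WT mean the highest. The call of c9587_g1 was lost in 6 of 28 settings and that of c3160_g1 in 9, in each case including those that left out MT replicate 2, MT replicate 3, WT replicate 2 or WT replicate 3.

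**Figure D1:**
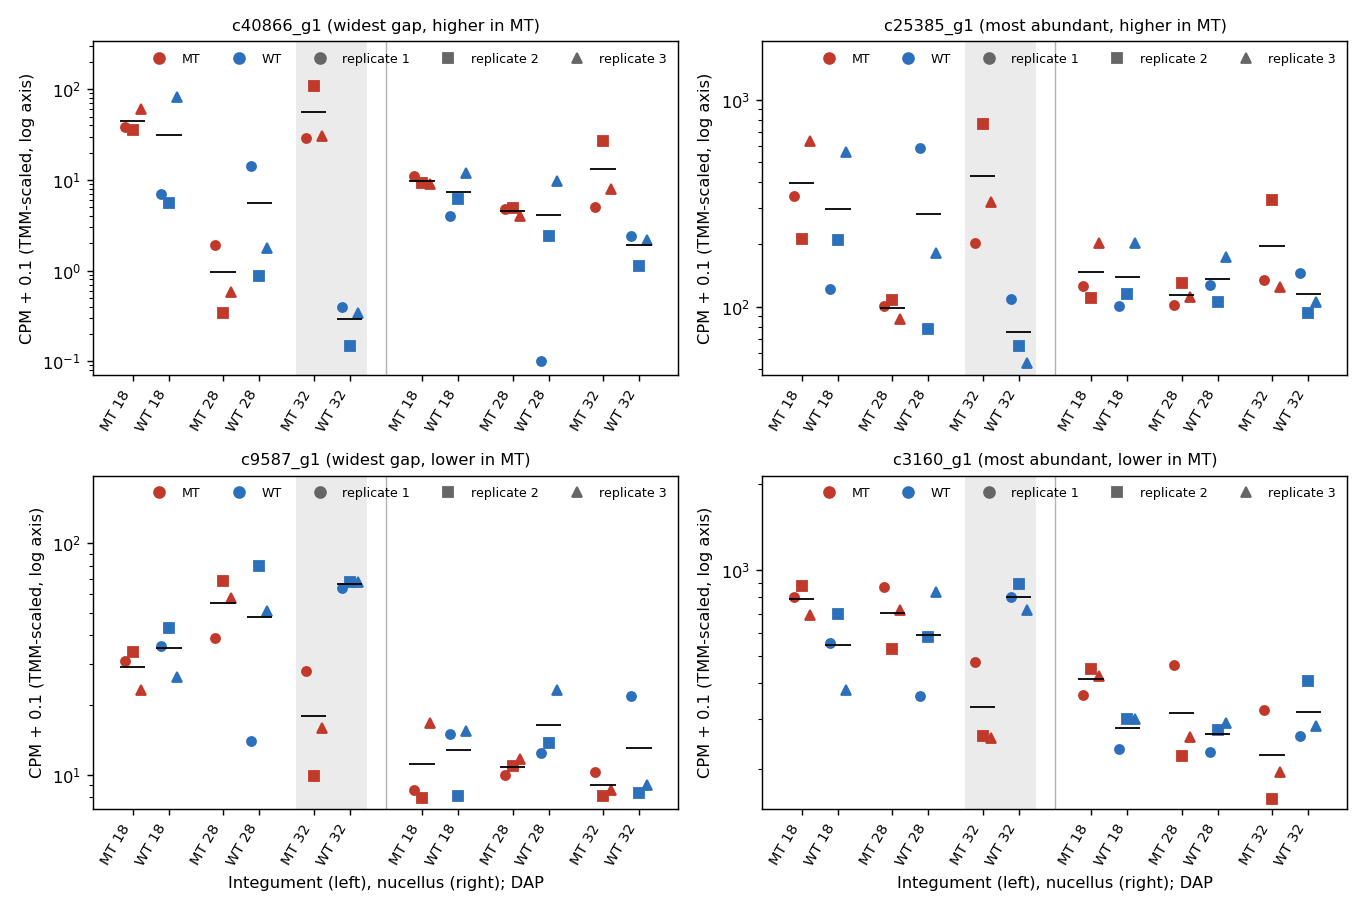
CPM per library, plus 0.1 and on a log axis, of the 2 named features higher and the 2 lower in MT integument at 32 DAP, in all 12 groups; points are libraries, bars are group means (n = 3) and the grey band marks integument at 32 DAP. c40866_g1 spans 0.241 to 60.5 CPM in the other MT integument libraries, so the gap of the grey band is not seen at 28 DAP.

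The 488 features called and separated higher in MT moved together from library to library, not evenly within a cultivar. They took 0.970%, 2.68% and 1.34% of all counts in MT replicates 1, 2 and 3 and 0.391%, 0.291% and 0.282% in the WT replicates. MT replicate 2 was the highest MT library for 449 of them, and MT replicate 1 the lowest for 339. WT replicate 1 was the highest WT library for 358. Over all tested features MT replicate 2 was the highest MT library for 37.4% and WT replicate 1 the highest WT library for 41.9%. The spread was also wider in MT, with a median SD of log2 CPM of 0.94 in MT and 0.45 in WT for these 488, against 0.51 in MT and 0.34 in WT over all tested features. The 71 features called lower were the mirror image only in part. MT replicate 1 was the highest MT library for 50 of them and WT replicate 1 the lowest WT library for 55. MT replicate 2 was the lowest MT library for 44. Their median SD was 0.43 in MT and 0.30 in WT, below the values over all tested features.

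The level of the 488 features in the other 30 libraries shows where they stood outside the comparison. Each feature was set against its mean log2 CPM in those 30 libraries, and the median over features was taken per library. The 6 libraries of the comparison lay at 0.60, 2.24 and 0.98 log2 units in MT and at -0.94, -1.49 and -1.55 in WT. The other integument libraries nearest to the MT level were WT replicate 1 of 28 DAP (1.02), MT replicate 3 of 18 DAP (0.96) and WT replicate 3 of 18 DAP (0.65). The libraries nearest to the WT level were WT replicate 2 of 28 DAP (-1.08) and MT replicates 2 (-1.05) and 3 (-0.96) of 28 DAP. High and low levels of these features thus occurred in libraries of both cultivars at the earlier stages.

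Counted by feature, WT replicate 1 of 28 DAP reached at least the lowest MT library of 32 DAP for 380 of the 488 (77.9%), MT replicate 3 of 18 DAP for 371 (76.0%) and WT replicate 3 of 18 DAP for 305 (62.5%). The 3 MT integument libraries of 28 DAP did so for 38, 10 and 16 features. At least 1 of 15 other WT libraries reached the MT range for 460 of the 488 features, and at least 1 of 6 other WT integument libraries for 423. For 28 features no other WT library did. Of the 71 lower features, 59 had at least 1 other WT library down in the MT range, and 12 had none. In bulk captures, fewer cells of a type and less RNA per cell cannot be told apart.

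**Figure D2:**
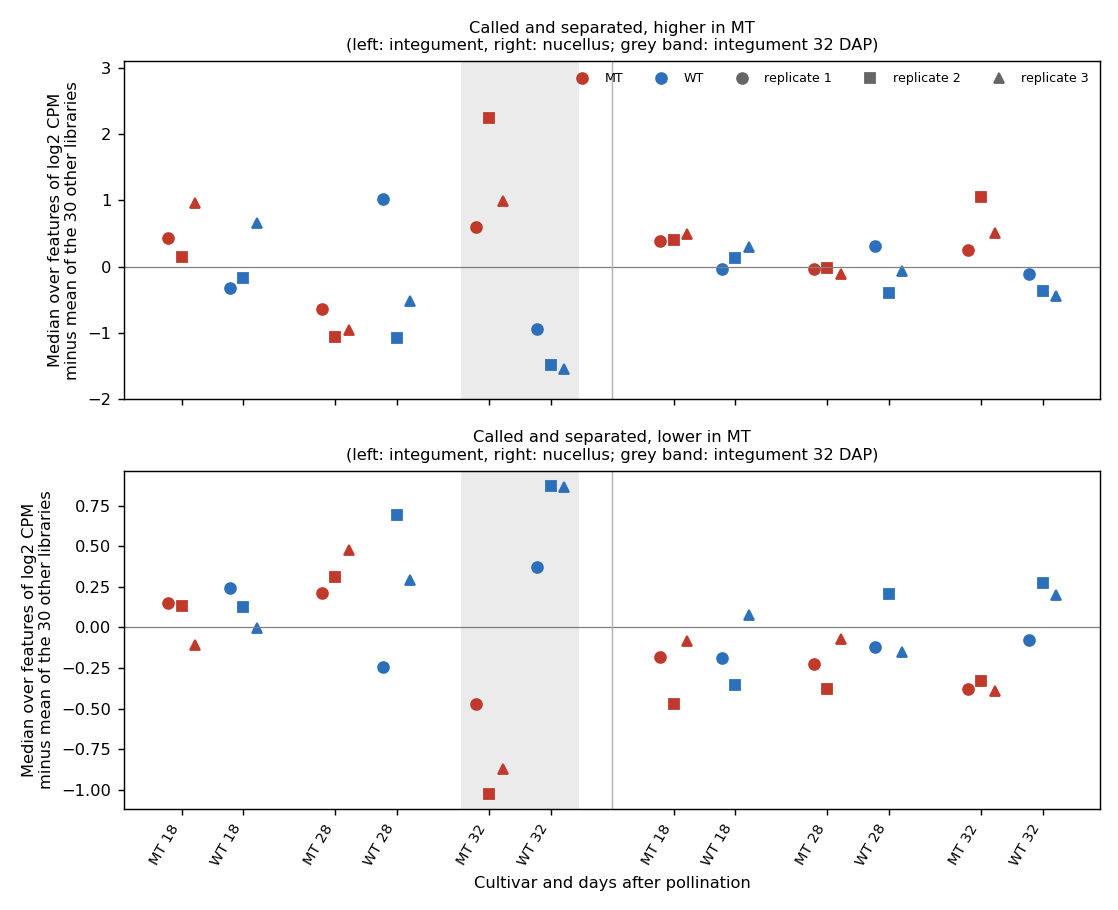
Median over the 488 features higher in MT (top) and the 71 lower in MT (bottom) of log2 CPM minus the feature's mean over the 30 libraries outside the comparison, per library. In the top panel WT integument replicate 1 of 28 DAP, at 1.02, sits among the MT libraries of 32 DAP, and the 3 MT integument libraries of 28 DAP sit below 0.

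Taken by group, both cultivars stood at an extreme at 32 DAP. Of the 488 features, MT integument at 32 DAP had the highest mean log2 CPM of the 12 groups for 288, and WT integument at 32 DAP had the lowest for 288. Among the 6 integument groups these counts were 433 and 401. Since the features were chosen for this difference, the counts are a description. From 28 DAP to 32 DAP the median log2 change of the 488 features was 2.32 in MT and -1.16 in WT, and from 18 DAP to 32 DAP 0.74 in MT and -1.44 in WT. From 18 DAP to 28 DAP it was -1.48 in MT and -0.27 in WT. Those libraries had no part in the separation, but their spread entered the fit behind the calls. In MT integument the group was thus lower at 28 DAP than at 18 DAP. Its rise to 32 DAP is partly built in, since the features were chosen as higher in MT at that stage. In WT integument the 3 libraries of 28 DAP were too far apart, from -1.08 to 1.02 log2 units, to place that stage.

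The cultivar difference of the separated features was then read in the 5 other tissue and stage combinations, whose libraries had no part in the separation. In the integument at 18 DAP, 691 of the 5729 features higher in MT (12.1%) were again fully separated with MT above WT, against 7.79% of all tested features, and 168 (2.93%) were separated the opposite way, against 7.73%. Of the 5714 features lower in MT, 606 (10.6%) were separated with MT below WT and 305 (5.34%) above. The 1297 features alike at 18 and 32 DAP became 1987 and 2285 without MT integument replicates 1 and 2 of 18 DAP, 3152 without WT integument replicate 3 of 18 DAP, 2386 and 1984 without MT replicates 1 and 3 of 32 DAP, and 2682 without WT replicate 1 of 32 DAP. Fewer libraries separate more easily, so such rises are partly built in, here and below. The median log2 fold change at 18 DAP was 0.21 for the higher and -0.14 for the lower features, and -0.02 over all tested features.

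At 28 DAP in the integument the features higher in MT had on balance the opposite sign, and among the called ones this rested on 1 WT library. Their median log2 fold change was -0.27, with 195 (3.40%) again separated above WT, against 6.6% of all tested features, and 380 (6.63%) below, against 5.94%. For this whole set too, WT integument replicate 1 of 28 DAP stood apart, at a median of 0.43 log2 units on the per-library scale used above. WT replicates 2 and 3 stood at -0.36 and -0.10, and the MT replicates at -0.10, -0.26 and -0.23. Whether the -0.27 rests on that library was not tested. Among the 488 called features the median log2 fold change was -1.08. A positive fold change was found for 40 (8.20%) of these, against 48.4% of all tested features. Without WT integument replicate 1 of 28 DAP, which stood at 1.02 log2 units against -1.08 and -0.51 in the other WT libraries and -0.64, -1.05 and -0.96 in MT, the median was -0.09 and 219 (44.9%) had a positive fold change. With any other of the 18 libraries of nucellus at 32 DAP or integument at 28 or 32 DAP left out the median stayed between -1.52 and -1.05. With all libraries kept it was -1.10 with DESeq2, but nearer to 0 in other fits. It was -0.59 with voom, -0.43 on log2(FPKM + 1) and -0.62 on log2(FPKM + 0.1). None of the 488 was separated above WT at 28 DAP, against 6.6% of all tested features. Separated below were 37 (7.58%), not far from the 5.94% of all tested features. The features lower in MT had a median of 0.04, with 220 (3.85%) separated the same way and 275 (4.81%) the opposite way. No feature was called at 28 DAP in the integument by edgeR (0%), where 3841 had an unadjusted p under 0.05; 32 were called with DESeq2, 259 with voom, and 0 with limma at either FPKM pseudocount. The 655 oppositely separated features became 1688, 1049 and 1038 without MT integument replicates 1, 2 and 3 of 28 DAP, and 2725 and 1112 without WT integument replicates 2 and 3 of that stage. They became 1541, 1339 and 1507 without MT replicates 1 or 3 or WT replicate 1 of 32 DAP, and 837 without WT integument replicate 1 of 28 DAP.

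The change in the cultivar difference between stages can itself be tested. The difference at 32 DAP minus that at 28 DAP passed the threshold for 807 features in the integument (1.41%; edgeR, adjusted p under 0.05), 786 of them with the MT-minus-WT difference higher at 32 DAP. The count was 37 without WT integument replicate 1 of 28 DAP and 2260 without WT integument replicate 2. It was 479, 174 and 206 without MT integument replicates 1, 2 and 3 of 28 DAP. Of the 32 DAP libraries, leaving out MT replicates 1 or 2 gave 1438 and 149, and leaving out WT replicates 1, 2 or 3 gave 1604, 155 and 143. DESeq2 called 1927 and voom 5646. With limma the count was 454 at an FPKM pseudocount of 1 and 381 at 0.1. The same contrast against 18 DAP gave 0 features by edgeR (4513 at an unadjusted p under 0.05). The contrast with 28 DAP shares its 32 DAP libraries with the choice of features and is given over all features only.

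Features separated the opposite way at 28 DAP are named by the widest gap at that stage, as a description with no test of that stage. The feature c72060_g1 had 47.8, 190 and 6.78 CPM in MT and 0.199, 0 and 0 CPM in WT at 32 DAP. At 28 DAP it had 0.111, 0.120 and 0.107 CPM in MT, all at or under the level of 3 counts, and 13.2, 0.388 and 0.945 CPM in WT. Its fold changes rest on 4 counts in WT at 32 DAP and 6 counts in MT at 28 DAP. The feature c81344_g1 had 25.6, 82.2 and 36.9 CPM in MT and 19.9, 20.6 and 24.7 CPM in WT at 32 DAP, and 16.5, 13.3 and 13.7 CPM in MT and 33.9, 37.1 and 37.9 CPM in WT at 28 DAP. At 32 DAP it was not called (edgeR, adjusted p = 0.476).

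In the opposite direction, c92281_g1 had 12.3, 0.756 and 10.1 CPM in MT and 16.2, 14.3 and 13.9 CPM in WT at 32 DAP. At 28 DAP it had 22.5, 21.6 and 22.9 CPM in MT and 6.01, 10.1 and 11.5 CPM in WT. The feature c65922_g1 had 9.79, 7.63 and 8.61 CPM in MT and 10.0, 11.2 and 10.4 CPM in WT at 32 DAP, where the groups nearly touched, and 21.2, 15 and 16.2 CPM in MT and 8.81, 10.1 and 9.63 CPM in WT at 28 DAP. Neither was called at 32 DAP (edgeR, adjusted p = 0.551 and 0.86).

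The nucellus of the same stage gave the closest match. At 32 DAP in the nucellus, 1325 of the 5729 features higher in MT integument (23.1%) were fully separated the same way, against 9.67% of all tested features, and 139 (2.43%) the opposite way, against 8.8%. Of the 5714 lower features 1173 (20.5%) were separated the same way and 202 (3.54%) the opposite way. The median log2 fold change there was 0.40 for the higher and -0.28 for the lower features, and 0.04 over all tested features. Among the 488 called features it was 0.95, with 435 (89.1%) above 0, where 53.0% of all tested features were. Same-numbered integument and nucellus libraries of a cultivar at 32 DAP shared deviations from their group means, with r from 0.225 to 0.482 over the 6 pairs, so the nucellus libraries are not independent of those that chose the features. MT nucellus replicate 2 was the highest nucellus library for the 488 features, at 1.04 log2 units, as MT replicate 2 was in the integument.

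Few of these features passed the test in the nucellus. Of the 31 features called there (0.0541%; edgeR), 29 (0.0506%) were higher and 2 (0.00349%) lower in MT. Of these 31, 18 were separated the same way in the integument, 16 higher and 2 lower in MT, and 1 was separated the opposite way. The 18 became 119 without MT nucellus replicate 1 and 28 without WT integument replicate 1 of 28 DAP. They became 0 without MT nucellus replicates 2 or 3 or WT nucellus replicates 1 or 2 (1031 to 1761 at an unadjusted p under 0.05, edgeR), 1 without WT nucellus replicate 3, and 7 to 10 without MT integument replicates 1 or 3 or WT integument replicates 2 or 3 of 32 DAP, or MT integument replicates 2 or 3 or WT integument replicate 3 of 28 DAP. DESeq2 gave 224, voom 473 and limma on log2(FPKM + 1) 40. Over all features these tools called 442, 1125 and 88 there. The cultivar difference in integument minus that in nucellus at 32 DAP passed the threshold for 0 features by edgeR (2732 at an unadjusted p under 0.05). By this fit no feature was shown to differ between cultivars in the integument alone. The fit did not pair same-numbered captures of the tissues, although these shared deviations, so it cannot exclude such features. The contrast was not run with the other tools or with these captures paired.

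The feature c85427_g1 had the widest nucellus gap among the 718 features higher in MT that reached 10 CPM in the integument and were separated in both tissues. In the nucellus at 32 DAP it had 35.3, 232 and 51.6 CPM in MT against 2.62, 2.62 and 3.43 CPM in WT. In the integument it had 140, 667 and 258 CPM in MT against 4.93, 1.38 and 1.71 CPM in WT, so that in both tissues replicate 2 was the highest and replicate 1 the lowest MT library. MT exceeded WT on the log2 scale by 7.05 ± 1.61 in the integument (SE; edgeR, adjusted p = 0.032) and 5.20 ± 1.48 in the nucellus (edgeR, adjusted p = 0.227), and the difference between the tissues was not called (edgeR, adjusted p = 0.9999). The WT cultivar expressed it at other stages. It had 257 CPM in WT integument replicate 1 of 28 DAP and 238 CPM in WT integument replicate 3 of 18 DAP, while the other 4 WT integument libraries of those stages were at 3.1 CPM to 28.4 CPM.

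The feature c109595_g1 followed the same libraries. It had 13.8, 39.7 and 22.5 CPM in MT nucellus and 1.64, 0.445 and 0.0993 CPM in WT nucellus at 32 DAP. In the integument it had 126, 619 and 272 CPM in MT and 4.73, 0.427 and 0.475 CPM in WT. At 18 DAP the integument held 131, 166 and 501 CPM in MT and 83.4, 20.0 and 373 CPM in WT, with replicate 3 highest in both cultivars. Its nucellus difference of 5.08 ± 1.64 on the log2 scale was not called (SE; edgeR, adjusted p = 0.3).

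Of the 701 features lower in MT under the same conditions, c47085_g1 had 2.37, 2.17 and 0.523 CPM in MT and 6.76, 5.79 and 7.95 CPM in WT nucellus. In the integument it had 8.71, 2.82 and 5.01 CPM in MT and 11.7, 23.8 and 21.9 CPM in WT. The feature c7351_g1 had 0.740, 1.35 and 1.31 CPM in MT and 3.51, 3.12 and 3.63 CPM in WT nucellus, and 4.60, 0.481 and 5.19 CPM in MT and 7.38, 14.4 and 12.6 CPM in WT integument. The groups did not overlap in either tissue, but neither feature was called in the integument (edgeR, adjusted p = 0.209 and 0.178) or in the nucellus (edgeR, adjusted p = 0.331 and 0.417). Both were lower in nucellus than in integument at 18 and 28 DAP, with log2 fold changes of -2.12 and -1.67 (edgeR, adjusted p = 1.5e-05 and 0.00011).

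**Figure D3:**
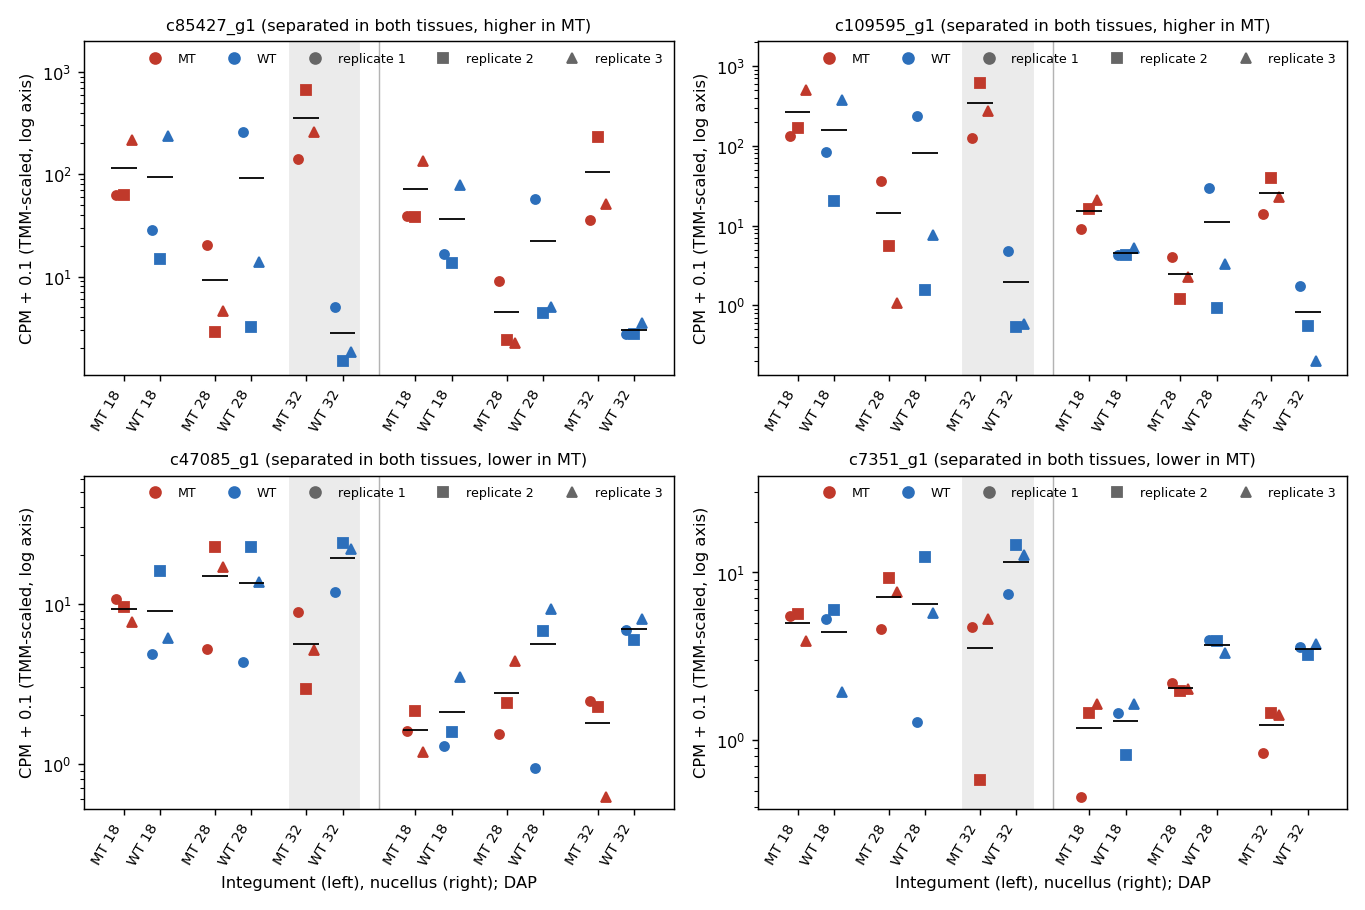
CPM per library, plus 0.1 and on a log axis, of the 2 features higher and the 2 lower in MT with the widest gaps in nucellus at 32 DAP among features separated in both tissues; points are libraries and bars are group means (n = 3). c85427_g1 reaches 257 CPM in WT integument at 28 DAP and 238 CPM at 18 DAP, each in 1 library.

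In the nucellus of earlier stages the same features differed less. By the edgeR test 1 feature was called at 18 DAP (0.00174%, lower in MT and no member; DESeq2 16, voom 1, limma 16 and 5 at FPKM pseudocounts of 1 and 0.1) and 0 at 28 DAP (7085 at an unadjusted p under 0.05; DESeq2 544, voom 216, limma 24 and 13 on log2(FPKM + 1) and log2(FPKM + 0.1)). In the integument at 18 DAP 4 were called (0.00698%, all lower in MT by edgeR), of which 1 was a member. There DESeq2 called 115, 28 of them higher in MT and 27 of them members, voom called 26 with 7 higher, and limma called 7 and 14 at those pseudocounts, all lower. Members, that is separated features, made up 20% of all tested features, so these member counts are no result about them. At 18 DAP in the nucellus, 760 of the 5729 higher features (13.3%) were separated the same way, against 7.5% of all tested features, and 559 of the 5714 lower (9.78%), against 7.36%. At 28 DAP these counts were 435 (7.59%, against 6.74%) and 372 (6.51%, against 5.58%), and the median log2 fold change was -0.05 for the higher and -0.04 for the lower features, near the -0.03 of all tested features. Over the 5 other combinations, 3187 of the higher features (55.6%) and 3406 of the lower (59.6%) were separated the same way in none. In all 5, 1 higher and 0 lower features were. Separation in all 3 integument stages was found for 44 features higher and 39 lower in MT. All 9 MT integument libraries lay beyond all 9 WT integument libraries for 9 features higher and 6 lower. These counts over several combinations were not set against all tested features, so they do not show how particular the features are to the comparison. Taken singly, the share separated the same way was above that of all tested features in each other combination except the integument at 28 DAP. This held for both directions.

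**Figure D4:**
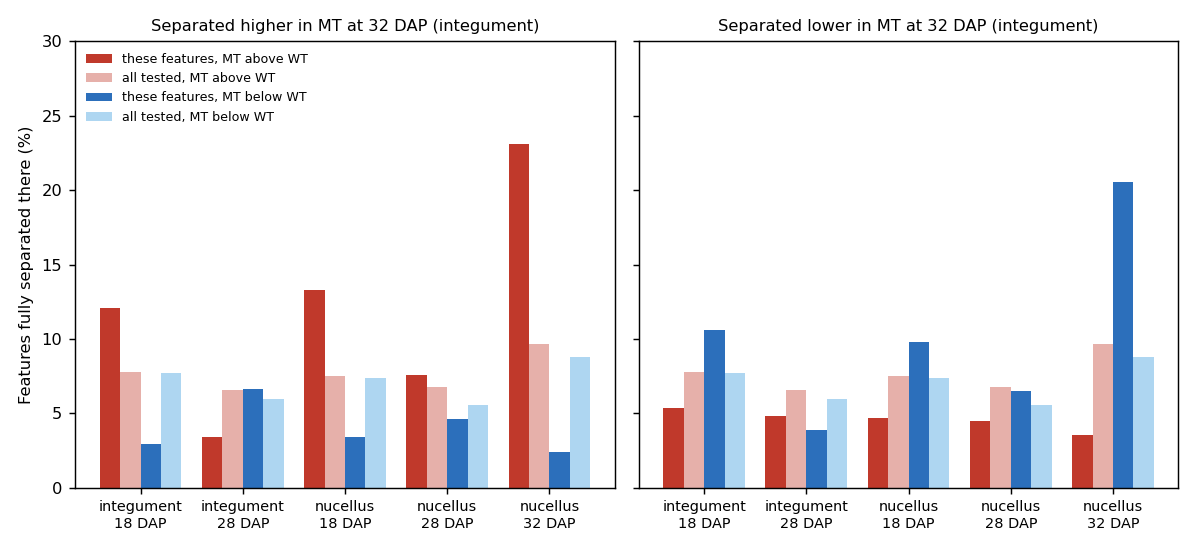
Percentage of features fully separated between 3 MT and 3 WT libraries in the 5 other tissue and stage combinations, for features separated higher (left) or lower (right) in MT integument at 32 DAP and for all tested features. The tallest bars are the same-direction ones in nucellus at 32 DAP, at 23.1% and 20.5%; for the features higher in MT the same-direction bar falls under that of all tested features in the integument at 28 DAP, at 3.40% against 6.6%.

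Tissue preference was read at 18 and 28 DAP only, where 4295 of the 11443 features differed between nucellus and integument, against 29.7% of all tested features. That count became 7323 when MT replicate 1 of 32 DAP was left out and 8020 when WT replicate 1 of 32 DAP was, with more features separated. Of the 5729 features higher in MT, 1031 (18.0%) were higher in nucellus and 1142 (19.9%) lower in nucellus than in integument at those stages (edgeR, adjusted p under 0.05), against 13.2% and 16.5% of all tested features. Of the 5714 lower in MT, 587 (10.3%) were higher and 1535 (26.9%) lower in nucellus. Among the 488 called features 159 (32.6%) were higher in nucellus and 126 (25.8%) lower. Of the 593 features marking nucellus, 33 (5.56%) were called higher and 2 (0.337%) lower in MT integument at 32 DAP, against 0.893% and 0.124% of all tested features, and 117 (19.7%) were separated higher and 36 (6.07%) lower, against 9.99% and 9.96%. Their median log2 CPM was 2.61, 2.73 and 2.66 in MT and 2.45, 2.05 and 2.21 in WT. Of the 1391 marking integument, 13 (0.935%) were called higher, near the share of all tested features, and 7 (0.503%) lower, and 181 (13.0%) were separated higher and 247 (17.8%) lower. The part of nucellus RNA in the cultivar difference was not tested.

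Separated features lay somewhat above the rest of the table in level. Features higher in MT had a median of 6.99 CPM over the 6 libraries, those lower 6.18 CPM and all tested features 5.02 CPM. Those with a gap above 1 lay below the rest, at 4.23 CPM for the 710 higher and 1.35 CPM for the 239 lower. Over 4 equal bins from the lowest to the highest level, the share separated higher was 7.38%, 9.56%, 10.2% and 12.8%, and the share separated lower 8.14%, 9.73%, 10.9% and 11.1%. The lowest bin starts at 0 CPM, where tied libraries cannot be separated, so its lower share is partly set by the rule. Length, taken from the ratio of count to FPKM, had a median of 2056 bases for features higher in MT, 1777 for those lower and 1916 for all tested features. For the 239 lower features with a gap above 1 it was 1154 bases, with a value for 83.3% of them, and for the 710 higher ones it was 1743 bases.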

How the data were processed

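The members and feature groups were chosen with earlier results of these data known. The authors deposited read counts and FPKM for 128861 features, made with cutadapt, Bowtie2, RSEM and DESeq, per the submitters' processing notes, which list no versions. The sources used here name no alignment reference. Deposited counts were whole numbers and were used as they stood; the FPKM of the authors served as an alternative. Column names give the stage as a digit, read as 18, 28 and 32 DAP in the order of the design text, and every DAP here rests on that reading.

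The low-count filter filterByExpr, run on the 12 groups, left 57344 features (holding at least 99.8% of counts in each of the 6 libraries), and these were TMM-scaled. A quasi-likelihood model with 12 group means was fitted to all 36 libraries with edgeR 4.0.16 in R 4.3.3, because 3 libraries against 3 estimate the spread poorly, and p-values were adjusted over all tested features by Benjamini-Hochberg. Standard errors come from the F statistic, and log2 CPM uses a prior count of 2. Full separation was counted on TMM-scaled CPM with strict inequality and is not a test. Implied lengths use libraries with at least 0.5 FPKM.

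Named features needed at least 10 CPM in the higher cultivar: the widest gap and the highest level among called and separated features, the 2 widest nucellus gaps per direction among features separated alike in both tissues at 32 DAP, and the 2 widest 28 DAP gaps among those separated oppositely. Cell type markers could not be applied without gene names. Alternatives were RLE and upper-quartile scaling, other filters, limma 3.58.1 on FPKM and with voom, DESeq2 1.42.0, a replicate block, the 6 libraries alone and each of 18 libraries of 28 and 32 DAP left out (for separation at 18 DAP also the 6 integument libraries of that stage, added after the results were seen). The contrast of the cultivar difference between 28 and 32 DAP was also added after the data were seen. RSEM divides reads between similar sequences, so counts of close copies may be exchanged.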

Additional observations from a re-analysis of the deposited data

Results flagged for a closer look

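In 4 named features every MT library lay on one side of every WT library at 32 DAP in the integument and on the other side at 28 DAP. They were chosen for this, so no test of the difference between the stages bears on them, and it is given as not tested. Their log2 fold changes at 32 and 28 DAP were 10.15 and -5.34 for c72060_g1, 1.15 and -1.32 for c81344_g1, -0.94 and 1.28 for c92281_g1, and -0.28 and 0.874 for c65922_g1.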

How the results depend on the processing

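No named feature's fold change at 32 DAP changed sign under the settings run. They were chosen as fully separated there, so leaving out a library could hardly turn the sign, and this is no support. Which direction held more separated features did turn, both with scaling and with single libraries left out. On FPKM those also separated in the nucellus were 972 higher and 1627 lower (1325 and 1173 with TMM), with upper-quartile scaling those alike at 18 DAP were 561 and 722 (691 and 606), and without MT replicate 1 of 32 DAP those opposite at 28 DAP were 741 and 800 (380 and 275). The 583 calls in the integument at 32 DAP became 328 without a low-count filter, 1148 on log2(FPKM + 1), 1919 with DESeq2, 3775 with voom and 0 with the 6 libraries alone, and ran from 0 to 1315 with 1 library left out. The 18 separated features called the same way in the nucellus became 40 of 88 called on log2(FPKM + 1), 224 of 442 with DESeq2 and 473 of 1125 with voom. With 1 library left out they ran from 0 to 119. The 807 features whose cultivar difference changed between 28 and 32 DAP became 472 without a low-count filter, 454 and 381 on log2(FPKM + 1) and log2(FPKM + 0.1), 1927 with DESeq2 and 5646 with voom, and ran from 37 to 2260. The cause was not tested. With 1 of the 18 libraries of nucellus at 32 DAP or integument at 28 or 32 DAP left out, separated features ran from 11661 to 23700, those also separated in nucellus at 32 DAP from 2520 to 4399, those opposite at 28 DAP from 664 to 2725, those alike at 18 DAP from 1304 to 2682 (to 3152 with the 6 integument libraries of 18 DAP also left out in turn), and those called between tissues from 4023 to 8020. Fewer libraries separate more easily, and separated features rose over 1.5 times without MT replicates 1 or 3 (21643 and 18736) or WT replicate 1 (23700). Same-numbered MT and WT libraries of integument at 32 DAP had r of -0.223, -0.191 and 0.108 and those at 18 DAP 0.054, 0.239 and 0.42, so by the 32 DAP values the numbers were not taken as pairs; a replicate block gave 510 calls. Same-numbered captures of both tissues had r from 0.0525 to 0.482 over 18 pairs, and a replicate block of these pairs gave 5055 tissue calls, against 4295. The WT level of c40866_g1 is limited by depth.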
